A study of Mus musculus with 4 samples.

Results

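The genes of cholesterol synthesis and of its regulation were followed in mouse liver tumors in which p53 had been switched back on. The set was 32 genes, chosen by name along the mevalonate and sterol pathway, and 29 of them were measured among 18193 genes. The theme itself had been picked from the p53 on against p53 off values of these same arrays. Differences between the groups are therefore given as a description of the members, and the set as a whole was not tested. Calls and adjusted p-values of single members rest on those same values and are part of that description. The 3 members Acat2, Nr1h2 and Soat1 had no probe set assigned to them alone and were not analysed here.

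The p53 on group comprised 2 tumor samples after 8 days of doxycycline, and the p53 off group 2 after 0 days. All 4 were driven by HrasV12, an oncogenic form of the RAS signalling protein, and all 4 carried a tet-off short hairpin RNA against p53, which is made until doxycycline is given. The tumors had grown from liver progenitor cells (LPCs) transplanted into the livers of recipient mice, which ate chow that did or did not contain doxycycline. Each sample was read on 1 Affymetrix mouse expression array. Strain, age and number of donor lines are not given in the labels, which also do not say whether replicates came from separate tumors or animals or were technical repeats. No array had doxycycline without the hairpin, so effects of p53, of doxycycline and of time cannot be told apart. The targeted gene was not analysed here, and the labels alone give the state of p53.

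Cholesterol is built from acetyl-CoA through mevalonate and isoprenoid units to squalene, which is closed into lanosterol and then trimmed to cholesterol. When the membranes of the endoplasmic reticulum are poor in cholesterol, the escort protein Scap carries the transcription factor SREBP2 to the Golgi, where it is cut free to switch on the genes of synthesis. Insig proteins hold this complex back when sterols are plentiful. Oxysterols activate the nuclear receptors LXR, which switch on genes of cholesterol export and of lipoprotein receptor degradation. The liver is a main site of cholesterol synthesis and of its disposal.

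Promoter sequences are shown because most of the synthesis genes moved together. Windows of 250 bases before the annotated start (RefSeq, GRCm38.p6) were given for 26 of the 32 members, 33 windows in all. For 18 of the 33 the base after the window was the start of the gene in the RefSeq gene list. The windows were searched on both strands for exact matches to a pair of motifs. Elements that differ from these letters were not counted, so a window without a match may still hold a variant element. The first was TCACCCCA, the core of the classical sterol regulatory element bound by SREBP proteins, and the second was CCAAT, the box bound by NF-Y, a known partner of SREBP2. The Srebf2 window is shown since it holds both motifs and its gene is among those with values on every array. Hmgcs1, with the other match to TCACCCCA, and Idi1, Cyp51 and Sc5d, the 3 largest falls among the members' brightest probe sets, were added after their values were seen. Capitals mark the matches, and ATTGG is CCAAT read on the opposite strand. The windows lie at chr15:82147019-82147268 on the plus strand (Srebf2), chr13:119690101-119690350 plus (Hmgcs1), chr13:8885356-8885605 plus (Idi1), chr5:4104698-4104947 minus (Cyp51) and chr9:42264301-42264550 minus (Sc5d), and each is written 5′ to 3′ along its gene.
Srebf2: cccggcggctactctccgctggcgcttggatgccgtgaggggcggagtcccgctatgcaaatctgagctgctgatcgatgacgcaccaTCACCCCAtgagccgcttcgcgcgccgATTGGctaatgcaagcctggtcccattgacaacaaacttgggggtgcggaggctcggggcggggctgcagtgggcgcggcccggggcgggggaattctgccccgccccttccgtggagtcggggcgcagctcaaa
Hmgcs1: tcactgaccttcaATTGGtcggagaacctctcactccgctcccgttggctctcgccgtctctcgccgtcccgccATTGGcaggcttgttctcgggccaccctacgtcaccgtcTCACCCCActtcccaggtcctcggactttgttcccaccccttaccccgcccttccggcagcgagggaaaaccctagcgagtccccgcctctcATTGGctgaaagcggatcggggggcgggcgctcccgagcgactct
Idi1: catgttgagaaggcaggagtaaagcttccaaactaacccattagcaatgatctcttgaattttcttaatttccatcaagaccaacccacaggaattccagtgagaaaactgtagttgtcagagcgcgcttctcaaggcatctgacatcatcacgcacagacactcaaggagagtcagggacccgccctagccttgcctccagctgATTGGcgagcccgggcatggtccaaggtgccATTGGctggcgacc
Cyp51: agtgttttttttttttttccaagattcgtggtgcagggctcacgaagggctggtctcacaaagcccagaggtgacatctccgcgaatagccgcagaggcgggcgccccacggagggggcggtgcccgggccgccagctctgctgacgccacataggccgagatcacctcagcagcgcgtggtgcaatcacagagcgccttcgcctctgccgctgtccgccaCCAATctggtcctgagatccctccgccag
Sc5d: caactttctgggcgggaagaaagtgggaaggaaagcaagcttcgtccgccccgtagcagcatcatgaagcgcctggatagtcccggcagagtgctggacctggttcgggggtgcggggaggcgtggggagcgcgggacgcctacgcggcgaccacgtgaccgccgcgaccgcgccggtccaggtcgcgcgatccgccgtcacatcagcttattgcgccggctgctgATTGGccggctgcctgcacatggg

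An exact match to TCACCCCA was found in 2 of the 26 member genes with a window (7.69%), Hmgcs1 and Srebf2. The share was 1.65% among the 14452 fitted genes with a window. A gene counted when any of its windows held the motif. In Srebf2 it spanned bases 162 to 155 before the start, with a CCAAT box at 135 to 131. In Hmgcs1 it spanned bases 137 to 130, between CCAAT boxes at 176 to 172 and at 45 to 41. The motifs did not overlap each other in the windows shown. A CCAAT box was present in 21 of 26 members (80.8%), against 39.4% of fitted genes. Of the members called lower in p53 on tumors that had a window, 14 of 14 held the box, against 42.9% (915 of 2132) of all genes called lower. Fdps, Fdft1, Sqle and Stard4 were called lower too but had no window. Among the members called higher, 1 of 4 held it, namely Mylip, and Abca1, Nr1h3 and Scap did not. Ggps1, Mvk, Dhcr7 and Insig2 held CCAAT boxes too and were not called. A match is a description of letters in this window, and no binding was measured.

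Values are log2 RMA intensities, in which a difference of 1 is a 2-fold change, and each gene is read from its brightest probe set. A gene was called when its difference passed a limma adjusted p of 0.05 over all 18193 genes. Array medians were 7.39 and 7.39 in p53 on tumors, against 7.34 and 7.29 in p53 off tumors. For beta-actin, whose 3′ minus 5′ control value tracks RNA quality, the difference was 0.479 and 0.492 in p53 on tumors, against 0.395 and 0.262 in p53 off tumors. It moved with the groups, and its part in the results below was not tested. Alb, the albumin gene that defines hepatocytes, was at 7.39 and 6.96 in p53 on tumors, against 7.07 and 7.06 in p53 off tumors, close to the array medians. Of 11 measured hepatocyte markers 1 was called, Hnf4a, which was lower (-0.58 ± 0.09). Summed after unlogging, hepatocyte markers were at 3035 and 2305 in p53 on tumors, against 2603 and 2546 in p53 off tumors. The epithelial keratin gene Krt18 was high on all 4 arrays (12.35 and 12.22 in p53 on, against 13.79 and 13.99 in p53 off).

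Most genes of cholesterol synthesis were lower in p53 on tumors, while the measured members of LXR signalling and cholesterol efflux were higher. Among the 29 measured members 18 were called lower and 5 higher, and 6 were not called. Of all genes, 14.7% were called lower and 14.0% higher, 28.7% in all. The higher share of those calls was 48.8%, and it was 37.9% with median centring and 70.0% with spike-in scaling. The fall reached at least 2-fold for 13 members and the rise for 3, where 2.55% and 2.73% of all genes did so. Both p53 on arrays lay below both p53 off arrays for 20 members and above them for 6, against 30.4% and 36.3% of all genes. As the set was picked on these arrays, nothing is read from these shares. The median difference of the members was -0.71, against 0.02 for all genes.

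**Figure D1:**
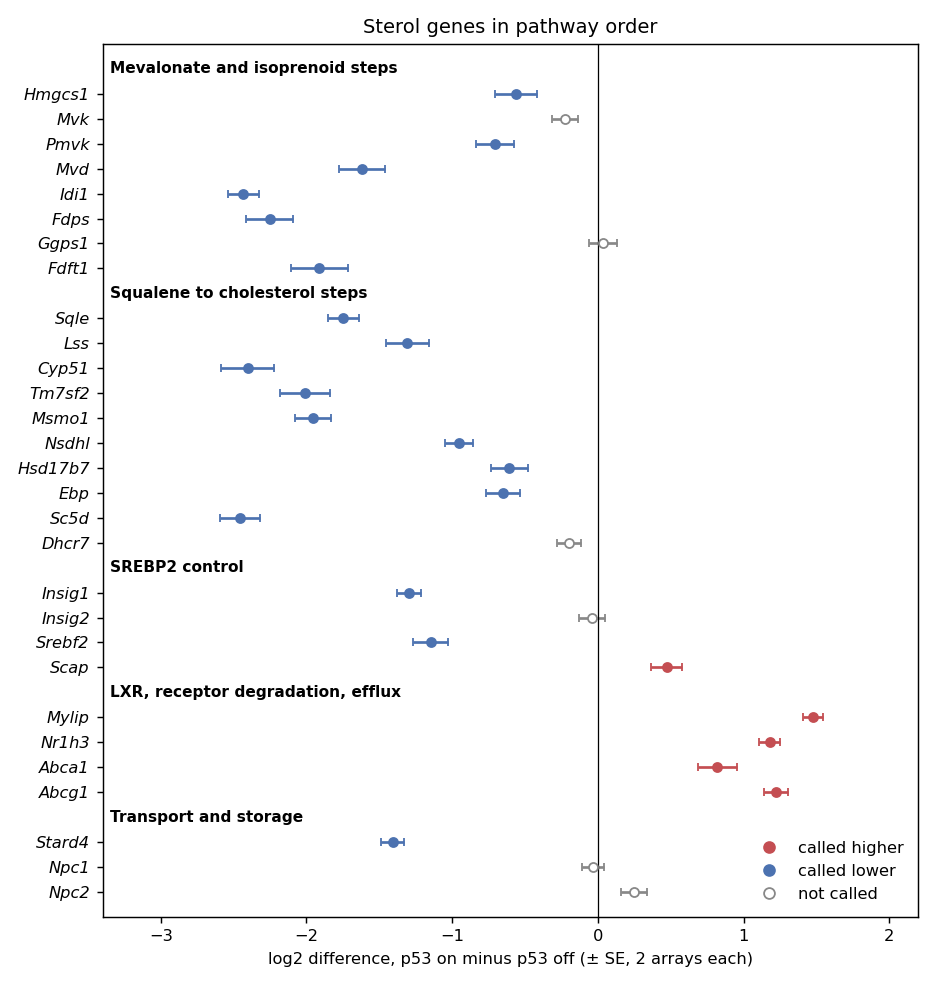
Difference of each measured gene (log2, p53 on minus p53 off, brightest probe set, bars ± SE, 2 arrays each), in pathway order from top to bottom. Blue points (18) were called lower, red points (5) higher and open points (6) were not called; the synthesis steps lie left of 0 except Ggps1, and the efflux genes lie right of it.

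Along the whole synthesis route, from the mevalonate steps to cholesterol, 15 of 18 measured genes were called lower and 0 higher (median -1.46, range -2.46 to 0.035). The 3 that were not called were Mvk, Ggps1 and Dhcr7. Among all genes the share called lower was 14.7%. Both p53 on arrays lay below both p53 off arrays for 17 of the 18, against 30.4% of all genes. Ggps1 was the exception. Summed after unlogging, the 18 genes reached 12440 and 12650 intensity units in p53 on tumors, against 30070 and 36510 in p53 off tumors. Replicates also differed in these genes. In p53 on tumors 13 of 18 were lower in replicate 1 than in replicate 2, and in p53 off tumors 17 of 18 were. These arrays come from whole tumors, so fewer cells of a type and less RNA per cell cannot be told apart.

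The route opens with the steps that make isoprenoid units. Idi1, the isomerase that readies these units for condensation, was at 8.84 and 8.94 in p53 on tumors, against 11.20 and 11.45 in p53 off tumors. Its difference of -2.43 ± 0.11 (SE, n = 2 each; 5.40-fold lower) ranked 24 among the falls of 18193 genes. Fdps, which joins the units into farnesyl diphosphate, was at 9.25 and 9.53 in p53 on tumors, against 11.45 and 11.84 in p53 off tumors (-2.25 ± 0.16, 4.76-fold lower). For both genes the gap between groups was several times the gap between replicates. Fdft1, squalene synthase, the branch point that commits farnesyl diphosphate to sterols, was at 9.10 and 9.64 in p53 on tumors, against 11.15 and 11.41 in p53 off tumors (-1.91 ± 0.20, 3.76-fold lower). Its p53 on arrays stood further apart than those of the other mevalonate genes, yet both lay below both p53 off arrays.

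The kinases and the decarboxylase upstream of Idi1 differed less. Mvd, the mevalonate diphosphate decarboxylase, was at 7.69 and 8.06 in p53 on tumors, against 9.35 and 9.64 in p53 off tumors (-1.62 ± 0.16, 3.07-fold lower). Pmvk, phosphomevalonate kinase, was at 8.41 and 8.55 in p53 on tumors, against 9.02 and 9.36 in p53 off tumors (-0.71 ± 0.13, 1.63-fold lower). For Mvd and Pmvk both p53 on arrays lay below both p53 off arrays, as was so for 30.4% of all genes. Hmgcs1, the cytosolic HMG-CoA synthase at the head of the route, was at 11.48 and 11.29 in p53 on tumors, against 11.76 and 12.13 in p53 off tumors (-0.56 ± 0.14, 1.48-fold lower). Mvk, the mevalonate kinase between them, had a difference of -0.23 ± 0.09 and was not called. Ggps1, which makes geranylgeranyl diphosphate for protein prenylation and stands off the sterol branch, was at 9.71 and 9.50 in p53 on tumors, against 9.61 and 9.52 in p53 off tumors (0.035 ± 0.098), and its arrays overlapped.

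In total 6 of the 8 measured genes of the mevalonate and isoprenoid steps were called lower (median -1.16), against 14.7% of all genes. The 2 smaller calls depended on single arrays. Without p53 off replicate 2 the limma adjusted p was 0.149 for Hmgcs1 (-0.38) and 0.0571 for Pmvk (-0.54). That of Hmgcs1 was 0.0804 without p53 on replicate 2, 0.0599 with quantile normalization and 0.0742 with the replicate number as a block.

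The next steps turn squalene into cholesterol. Of the 10 genes from squalene to cholesterol 9 were called lower (median -1.53), against 14.7% of all genes. Both p53 on arrays lay below both p53 off arrays for all 10, against 30.4% of all genes. Sqle, squalene epoxidase, a known control point of the pathway, was at 9.67 and 9.60 in p53 on tumors, against 11.25 and 11.51 in p53 off tumors (-1.75 ± 0.11, 3.35-fold lower). Lss, which closes the ring to lanosterol, differed by -1.31 ± 0.15 (2.48-fold lower). That probe set may cross-hybridize, and the brightest probe set of Lss without such a mark was at -0.80. Cyp51, the demethylase that starts work on lanosterol, was at 8.27 and 8.40 in p53 on tumors, against 10.47 and 11.01 in p53 off tumors (-2.40 ± 0.18, 5.29-fold lower). The replicates of Cyp51 lay close together in p53 on tumors and further apart in p53 off tumors.

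The reductase and the oxidase that follow Cyp51 differed by similar amounts. Tm7sf2, a sterol reductase, was at 7.18 and 7.28 in p53 on tumors, against 8.98 and 9.50 in p53 off tumors (-2.01 ± 0.17, 4.03-fold lower). Both p53 on values of Tm7sf2 lay just under the array median. Msmo1, the methylsterol oxidase, was at 10.73 and 10.48 in p53 on tumors, against 12.45 and 12.68 in p53 off tumors (-1.96 ± 0.13, 3.88-fold lower). Sc5d, the desaturase close to the end of the route, was at 8.44 and 8.72 in p53 on tumors, against 10.90 and 11.16 in p53 off tumors (-2.46 ± 0.14, 5.49-fold lower). Among brightest probe sets it had the largest fall of the members and ranked 23 of 18193 genes, but its probe sets averaged -0.94, against -2.50 for those of Idi1.

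Smaller differences belonged to Nsdhl (-0.95 ± 0.098), which works with Msmo1 to remove methyl groups, and to Hsd17b7 (-0.61 ± 0.13), the reductase of the same complex. Ebp, the sterol isomerase, differed by -0.65 ± 0.12. Dhcr7, the reductase of the last step, was at 7.41 and 7.37 in p53 on tumors, against 7.52 and 7.66 in p53 off tumors (-0.20 ± 0.08). Its arrays did not overlap, but it was not called. Without p53 off replicate 2 the calls of Hsd17b7 (adjusted p 0.0702, -0.44) and Ebp (0.0849, -0.60) were lost.

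**Figure D2:**
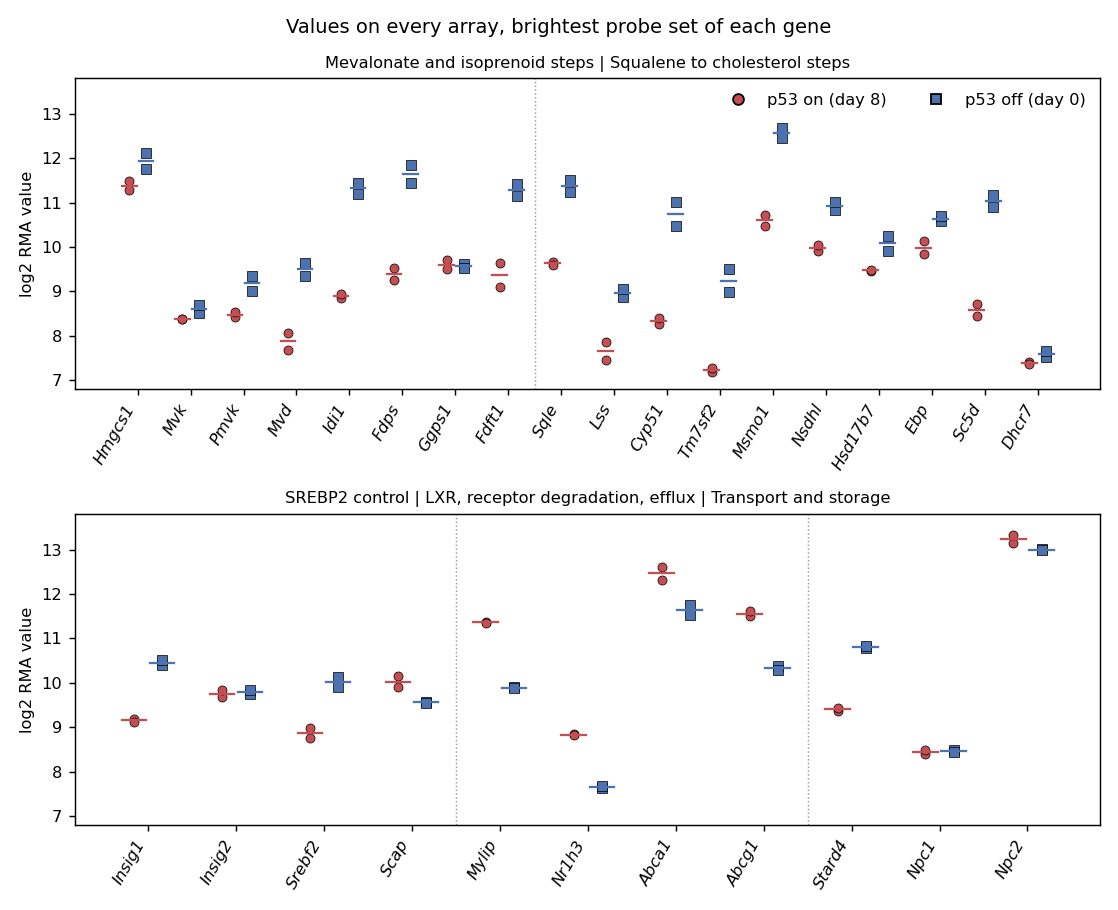
Log2 RMA value of each gene on every array, with p53 on tumors (red circles) left of p53 off tumors (blue squares) and a line at each group's mean. The upper panel holds the synthesis genes and the lower panel SREBP2 control, efflux and transport. The circles and squares separate for the synthesis genes apart from Ggps1. The order turns over for Mylip, Nr1h3, Abca1 and Abcg1, and by smaller differences for Scap and Npc2.

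Epithelial markers and genes of dividing cells moved in the same arrays. Of 12 epithelial markers 8 were called lower and 1, Epcam, higher (median -0.81, range -1.61 to 0.52), and their summed level was 18440 and 17690 in p53 on tumors, against 40390 and 46360 in p53 off tumors. Genes of dividing cells were lower for 11 of 11 measured (median -0.86), with a summed level of 8172 and 8980 in p53 on tumors, against 16370 and 18310 in p53 off tumors. Their part in the fall of the synthesis genes was not tested.

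Among the genes that control SREBP2, the factor itself and its feedback gene were lower, and the escort gene was slightly higher. Srebf2, which encodes SREBP2 and is known as a target of its own product, was at 8.75 and 8.99 in p53 on tumors, against 9.90 and 10.13 in p53 off tumors (-1.15 ± 0.12, 2.22-fold lower). Its other probe set, nearly as bright, was at -0.37 and was not called. Insig1, the SREBP-induced retention protein, was at 9.19 and 9.12 in p53 on tumors, against 10.40 and 10.51 in p53 off tumors (-1.30 ± 0.08, 2.45-fold lower). For Srebf2 and Insig1 both p53 on arrays lay below both p53 off arrays, as was so for 30.4% of all genes. The paralog of Insig1, Insig2, which is known to depend less on SREBP, was at 9.68 and 9.83 in p53 on tumors, against 9.75 and 9.85 in p53 off tumors (-0.04 ± 0.09), and its 3 probe sets lay between -0.11 and -0.04. Scap was at 9.90 and 10.16 in p53 on tumors, against 9.56 and 9.55 in p53 off tumors (0.47 ± 0.11, 1.39-fold higher). Both p53 on arrays lay above both p53 off arrays, but the call of Scap was lost without p53 off replicate 1 (adjusted p 0.103) and without p53 off replicate 2 (0.127). The paralogous factor gene Srebf1, which serves fatty acid synthesis more, differed by -0.11 ± 0.08 and was not called.

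The genes of LXR signalling, receptor degradation and efflux ran the other way, with 4 of 4 measured called higher (median 1.20), against 14.0% of all genes. Mylip, an LXR-induced ubiquitin ligase that marks lipoprotein receptors for degradation, was at 11.37 and 11.36 in p53 on tumors, against 9.89 and 9.88 in p53 off tumors (1.48 ± 0.07, 2.78-fold higher). Its replicates lay close together, with an SD of 0.0086 in p53 on tumors and 0.009 in p53 off tumors. Nr1h3, which encodes LXR alpha, was at 8.84 and 8.81 in p53 on tumors, against 7.62 and 7.67 in p53 off tumors (1.18 ± 0.07, 2.27-fold higher). The efflux pump gene Abcg1 was at 11.50 and 11.61 in p53 on tumors, against 10.38 and 10.28 in p53 off tumors (1.225 ± 0.08, 2.34-fold higher). Abca1, the pump that loads cholesterol onto apolipoprotein A-I, was at 12.62 and 12.32 in p53 on tumors, against 11.76 and 11.54 in p53 off tumors (0.82 ± 0.13, 1.77-fold higher). Both p53 on arrays lay above both p53 off arrays for all 4, against 36.3% of all genes. The call of Abca1 was lost without p53 off replicate 2 (adjusted p 0.0606, 0.71).

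Summed after unlogging, these 4 genes reached 12290 and 11320 in p53 on tumors, against 5955 and 5363 in p53 off tumors. Markers of macrophages, cells that use the same pumps and receptors, moved the same way. Of 20 macrophage markers 13 were called higher and 0 lower (median 0.66, range -0.17 to 1.44). Their summed level was 61370 and 52740 in p53 on tumors, against 29690 and 32810 in p53 off tumors. Fibroblast markers were higher for 10 of 12 (median 0.65), with sums of 121000 and 117500 in p53 on tumors, against 73570 and 64540 in p53 off tumors. Endothelial markers were higher for 8 of 12 and lower for 1, Lyve1 (median 0.65), with sums of 9753 and 11140 in p53 on tumors, against 7487 and 7020 in p53 off tumors. T, NK and B cell markers were higher for 3 of 8 (median 0.16). The part of these cells in the rise of the efflux genes was not tested.

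Of the genes that move cholesterol inside cells, Stard4, an SREBP2 target that carries sterol between membranes, was at 9.36 and 9.44 in p53 on tumors, against 10.77 and 10.84 in p53 off tumors (-1.41 ± 0.08, 2.66-fold lower). It went with the synthesis genes. Npc1, the lysosomal membrane exporter of cholesterol, was at 8.38 and 8.49 in p53 on tumors, against 8.49 and 8.45 in p53 off tumors (-0.03 ± 0.08), and its arrays overlapped. Npc2, its soluble partner, was at 13.16 and 13.34 in p53 on tumors, against 13.00 and 13.00 in p53 off tumors (0.25 ± 0.09). Its arrays did not overlap, and it was not called. Of the 4 probe sets of Npc2 1, dimmer than the one used, was called higher (0.58 ± 0.07).

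Members had 65 probe sets, of which 36 were called lower and 8 higher and 21 were not called. Of all 34945 probe sets of 1 gene, 13.6% were called lower and 12.3% higher. No gene of the set had probe sets called in opposite directions. The probe sets were alike for Idi1 (-2.43 and -2.57), Mvd (-1.62 and -1.67) and Abcg1 (1.225 and 1.10). All 5 of Hmgcs1 were called lower, between -1.31 and -0.51, as were all 3 of Stard4, between -2.19 and -1.41. The dimmest probe set of Hmgcs1 had its largest fall.

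Other genes rested on fewer probe sets. The fall of Sc5d came from its brightest probe set, and the other 2 stood at -0.02 and -0.36 and were not called. The dim probe set of Fdps (mean 4.93) was at -0.02, and of 4 for Fdft1 a pair was at -1.91 and -1.81 and the dim pair at 0.16 and 0.05. The other probe set of Srebf2, of similar brightness, was at -0.37 and was not called. The difference of Ggps1 also varied by probe set, since the 2 brighter ones were at 0.035 and 0.20 and the 2 dimmer ones, both called lower, at -0.54 and -0.64. Hsd17b7 ran from -1.58 to 0.00 over 4 probe sets. When a gene's probe sets were averaged, the difference was -0.94 for Sc5d, -1.13 for Fdps, -0.88 for Fdft1, -1.58 for Cyp51, -1.05 for Lss, -1.21 for Msmo1 and -0.76 for Srebf2, and 0.48 for Abca1.

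**Figure D3:**
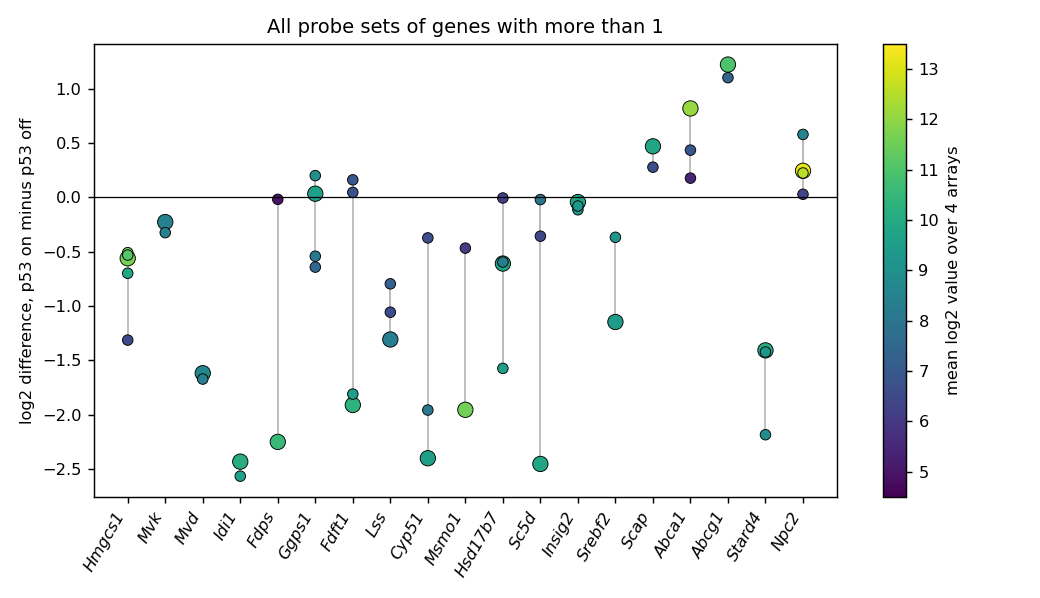
Difference (log2, p53 on minus p53 off) of every probe set of the genes that have more than 1, with the larger dot for the brightest and colour for the mean log2 value over the 4 arrays. For Sc5d, Fdps, Fdft1, Cyp51 and Msmo1 the dimmer dots lie nearer to 0, while those of Idi1, Mvd and Insig2 lie close together.

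Other genes of sterol metabolism were listed by function, with the shares of all genes called given above as background. Of 14 further synthesis and SREBP genes 4 were called lower and 1 higher (median -0.14). Tmem97, a sterol-regulated membrane protein gene, was the largest of them, at 7.62 and 8.05 in p53 on tumors, against 9.23 and 9.35 in p53 off tumors (-1.46 ± 0.15). Erlin1, which takes part in degrading sterol-regulated proteins of the endoplasmic reticulum, differed by -0.39 ± 0.07, and Lbr, a nuclear membrane protein with sterol reductase activity, by -0.37 ± 0.07. The branches that use isoprenoids for prenylation, dolichol and ubiquinone were called for 2 of 13 genes, both lower, namely Rabggtb (-0.71 ± 0.07) and Rabggta (-0.56 ± 0.09), subunits of the enzyme that prenylates Rab proteins. The median of that list was -1e-04.

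Lipoprotein genes moved in both directions, with 4 of 14 lower and 4 higher (median 0.10). Apob, the structural protein of liver lipoproteins, fell most (-3.27 ± 0.21), and Apoe (1.08 ± 0.10) and the phospholipid transfer protein gene Pltp (1.07 ± 0.10) were higher. Of 15 genes of oxysterols, bile acids and biliary export 1 was called, Cyp27a1, a sterol hydroxylase that makes an oxysterol ligand of LXR (0.37 ± 0.10; list median 0.19). A further list, of some known LXR targets together with sterol carriers, was called lower for 5 of 16 genes and higher for 5 (median 0.07). Fasn, the fatty acid synthase, was lower (-1.19 ± 0.09), as were the LXR targets Scd2 (-0.73 ± 0.10) and Lpcat3 (-0.36 ± 0.10). Mlxipl and Scd1, known as LXR targets too, were not called. None of Fasn, Scd2, Lpcat3, Mlxipl and Scd1 was called higher, but the list does not hold every LXR target. Apoe and Pltp, both called higher, were counted on the lipoprotein list instead. Gramd1a, a carrier of plasma membrane cholesterol, was higher (0.91 ± 0.10), as was the oxysterol-binding protein gene Osbpl1a (0.85 ± 0.08). The stearoyl-CoA desaturase gene Scd1 differed between replicates, at 11.58 and 9.68 in p53 on tumors, against 10.74 and 10.83 in p53 off tumors. The same p53 on arrays stood apart for the hepatocyte gene Cyp2e1, at 9.71 and 7.39, against 7.27 and 7.24 in p53 off tumors. Scd1, Scd2, Lpcat3, Mlxipl and Cyp2e1 were picked out after their values were seen.

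**Figure D4:**
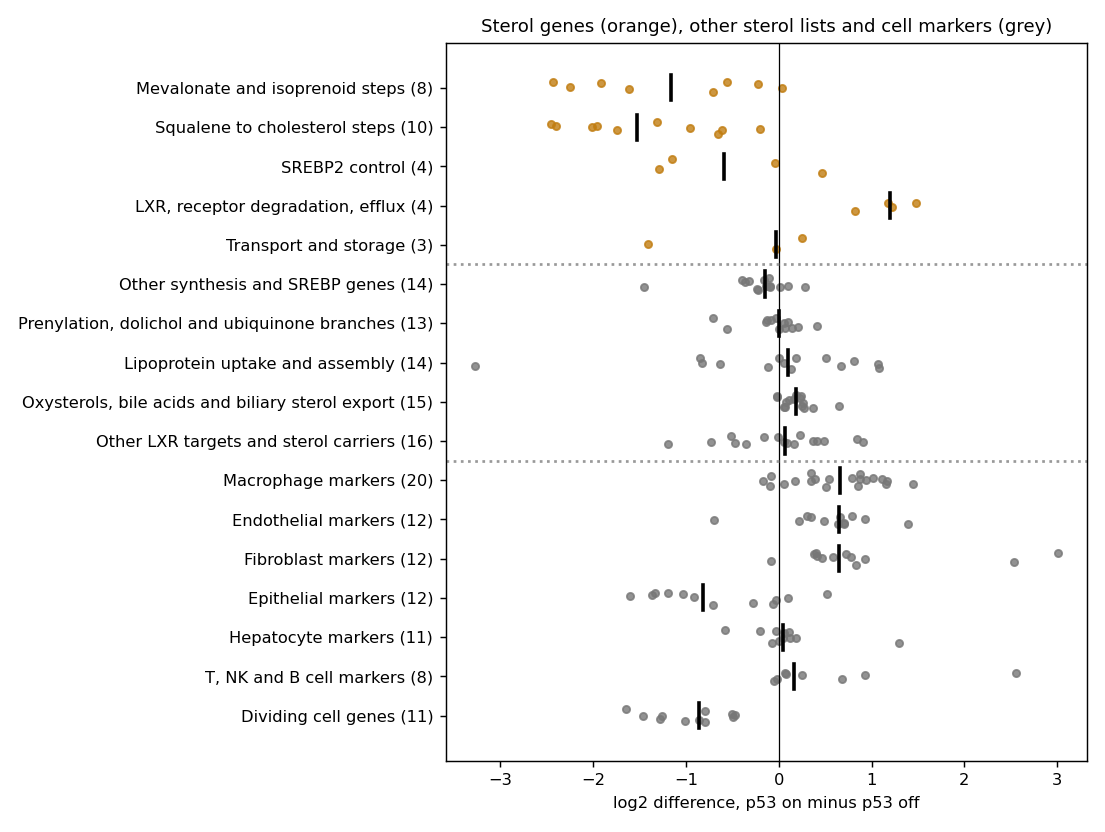
Differences (log2, p53 on minus p53 off) of the genes of each list, 1 point a gene, with the number measured in brackets and a bar at the median. The sterol genes are orange; both synthesis lists lie left of 0 apart from Ggps1 (medians -1.16 and -1.53) and the efflux list right of it (1.20), while the grey lists of other sterol genes have medians between -0.14 and 0.19.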

How the data were processed

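Per the labels' protocols, total RNA of 4 tumor samples was extracted with Trizol, amplified and labelled with biotin. The deposited table holds log2 values that the authors made with RMA (background correction, quantile normalization and summarisation of probes), per the submitters' processing notes. Those notes name limma 3.14.4 too. RMA values carry no detection call, so differences of dim probe sets can be compressed (values ran from 4.66 to 14.9). The authors' build and annotation were not given in the sources used here. The table holds 45101 probe sets, of which 64 are controls. GEO's platform annotation gave exactly 1 gene symbol for 34945, several for 932 and none for 9160 (unnamed here), and 34741 matched RefSeq gene IDs, with 0 symbols updated.

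Each gene was read from its probe set of highest mean over the 4 arrays. In limma 3.58.1 under R 4.3.3, lmFit and eBayes were run over the 18193 genes for p53 on minus p53 off, with no block (2 residual and 5.47 moderated degrees of freedom). Adjusted p is Benjamini-Hochberg over all genes, called under 0.05. Probe sets were adjusted over all 34945. The p-values reflect only how these arrays spread, which may be technical, and the number of arrays limits precision. The fit was tested on simulated data. RefSeq promoter windows and motifs were handled in Python 3.11.15 and figures drawn with matplotlib 3.10.9.

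The members, the 5 other sterol lists (further synthesis and SREBP genes, isoprenoid branches, lipoproteins, oxysterols and bile acids, LXR targets and carriers) and the 7 marker lists (macrophage, endothelial, fibroblast, epithelial, hepatocyte, T, NK and B cell, dividing cell) were chosen with earlier results of these data known. Every member is named. Values on every array were to be given for up to 5 called members of each role with the largest difference. Others were added as uncalled or for contrast. Up to 3 called genes were to be named from each other sterol list and up to 2 from each marker list. Scd2 and Lpcat3 were named beyond this limit. The alternatives were a replicate block, quantile normalization, median centring, scaling to hybridization spike-in controls, leaving out the dimmest 40% of genes, the mean of all probe sets, probe sets without a mark of cross-hybridization, trend and robust eBayes, a minimum difference of 1, and leaving out each array. Same-numbered arrays did not deviate together across all genes (r = -0.154), so replicate numbers were not taken as pairs. Among the 29 measured members, 20 were lower in replicate 1 than in replicate 2 of p53 on tumors. In p53 off tumors 22 were. The correlation across all genes does not settle pairing for this set.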

Additional observations from a re-analysis of the deposited data

How the results depend on the processing

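Of 299 values of the 23 called members under 13 settings (the alternatives without the minimum difference of 1, and the crossed pairing), 287 kept their direction and call, 12 lost the call and 0 reversed; the lost calls were those of Hmgcs1, Pmvk, Hsd17b7, Ebp, Scap and Abca1. With the minimum difference of 1 the calls of Hmgcs1, Pmvk, Hsd17b7, Ebp, Scap, Abca1 and Nsdhl (-0.95) were lost. The count of members called lower was 18 and ran from 13 to 19 over the alternatives, and from 14 to 18 when each array was left out. The count called higher was 5, against 3 when calls needed a difference of at least 1, and ran from 3 to 6 when each array was left out (3 without p53 off replicate 2). The median difference of the members was -0.71, against -0.58 with spike-in scaling of the arrays, which shifts the median of all genes by 0.131; it ran from -0.88 (without p53 off replicate 1) to -0.60 when each array was left out. Over all genes 5223 were called, 960 with a difference of at least 1, and from 2228 (without p53 off replicate 2) to 5055 when each array was left out, with 3259 without p53 off replicate 1. The share of called genes that were higher was 48.8%, against 37.9% with median centring and 70.0% with spike-in scaling. When an array was left out, the spread came from the other group's arrays and was taken to hold for the remaining array.

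With the replicate block 17 members were called lower and 5 higher, and 4323 genes were called. The crossed pairing, chosen after seeing the data, gave 17 lower, 4 higher and 3954 genes, and the calls of Pmvk (adjusted p 0.0531) and Scap (0.0523) were lost. Single genes with differences under 1 are at the limit of what 2 arrays a group can show.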
